A study of Solanum lycopersicum with 9 samples.

Results

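The genes described here are 5 tomato loci that shape the inflorescence, the shoot that carries the flowers: COMPOUND INFLORESCENCE (S, Solyc02g077390), ANANTHA (AN, Solyc02g081670), FALSIFLORA (FA, Solyc03g118160), TMF (Solyc09g090180) and JOINTLESS (J, Solyc11g010570). They were chosen by gene ID, with earlier results of these data known. Because S has 2 gene models, the 5 loci account for 6 of the 33989 gene models in the expression table. RNA-Seq was carried out on 9 libraries in 3 groups of 3. The first group, named OE1, OE9 and OE30, was taken as the 35S::WRKY-B-GFP overexpression plants of the study, and the numbers may be those of independent lines, in which case each line has 1 library. The other groups, CK2 and CK1, were taken as controls. The study describes only 6 RNA-Seq libraries, of wild-type and WRKY-B-GFP plants, and does not say which control set was among them. The sample labels give flower as the tissue and Compound raceme as the cultivar for OE, bud and Compound raceme for CK2, and bud and monomaker for CK1, whereas the study's methods describe axillary buds of Ailsa Craig plants, with pools of plants as replicates. Which of these holds could not be settled. By the labels, overexpression, tissue and, against CK1, cultivar change together, so their parts in any difference between OE and a control cannot be told apart. The labels give neither an age nor a treatment for any group, the methods describe seedlings, and the 35S promoter that drives WRKY-B is active in most plant tissues.

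In a tomato shoot, the growing tip first makes leaves, then becomes an inflorescence meristem and ends in a flower, while the next meristem forms beside it and repeats the cycle. S encodes a homeobox transcription factor of the WOX9 type, and AN encodes the F-box protein that is the counterpart of UNUSUAL FLORAL ORGANS in Arabidopsis. Tomato meristems express S before AN as they mature, and loss of either gene leaves meristems indeterminate for longer and gives highly branched inflorescences. FA is the tomato counterpart of the Arabidopsis transcription factor LEAFY, which works with the F-box partner to specify floral identity, and fa mutants make leafy shoots in place of flowers. TMF, a protein of the ALOG family, keeps the meristem vegetative and holds back early activation of AN. J, a MADS-box factor, is needed for the abscission zone of the flower stalk and keeps the inflorescence meristem from returning to leaf production.

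Expression is given as FPKM, the number of sequenced fragments scaled by transcript length and library size, so that levels can be compared between genes. Read totals are not known, and precision rests on the spread of 3 libraries per group. The deposited values have 2 decimals, the lowest above zero being 0.01 FPKM in every library. WRKY-B (Solyc02g071130.3), the overexpressed gene, was at 74.0, 205.7 and 93.5 FPKM in OE1, OE9 and OE30, against 0.08 to 0.40 FPKM in CK2 and 0.55 to 0.87 FPKM in CK1, so the overexpressed gene was high in the libraries labelled OE and in no other. FPKM summed to between 615715 and 684351 in the OE libraries and to between 743707 and 769380 in the controls. Pearson's r between libraries, computed across gene models on log2 values, was 0.948 to 0.959 within OE and 0.974 to 0.977 within each control group. Between groups it was 0.604 to 0.635 for OE and CK2, 0.749 to 0.801 for OE and CK1 and 0.701 to 0.726 for CK2 and CK1. OE was thus less like CK2, which shares its labelled cultivar, than like CK1. The labelled tissues could not be checked against marker genes, because the reference table, with 41476 genes, pairs no name with an ID of the file. In bulk samples, fewer cells of a type and less RNA per cell cannot be told apart, and this holds for every gene below.

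The 5 genes stood in a different order in the 3 groups. In OE, TMF (10.3 to 21.1 FPKM) and J (10.1 to 11.2 FPKM) were highest and overlapped, FA followed at 4.89 to 6.42 FPKM, and AN (0.85 to 2.96 FPKM) and S (0.86 to 1.29 FPKM, with both gene models summed) were lowest and overlapped. In CK2 the order was TMF (17.3 to 17.6 FPKM), J (6.30 to 6.69 FPKM) and S (2.99 to 4.03 FPKM), none of which overlapped, while AN (0.05 to 0.14 FPKM) and FA (0.06 to 0.11 FPKM) were close to the lowest values reported and overlapped. In CK1 the ranges of all 5 genes were separate, with TMF at 15.2 to 16.7 FPKM, S at 6.55 to 7.17 FPKM, J at 4.31 to 5.33 FPKM, AN at 0.50 to 0.55 FPKM and FA at 0.23 to 0.41 FPKM. FA was thus the third highest in OE, and shared the lowest place with AN in CK2 or held it alone in CK1.

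**Figure D1:**
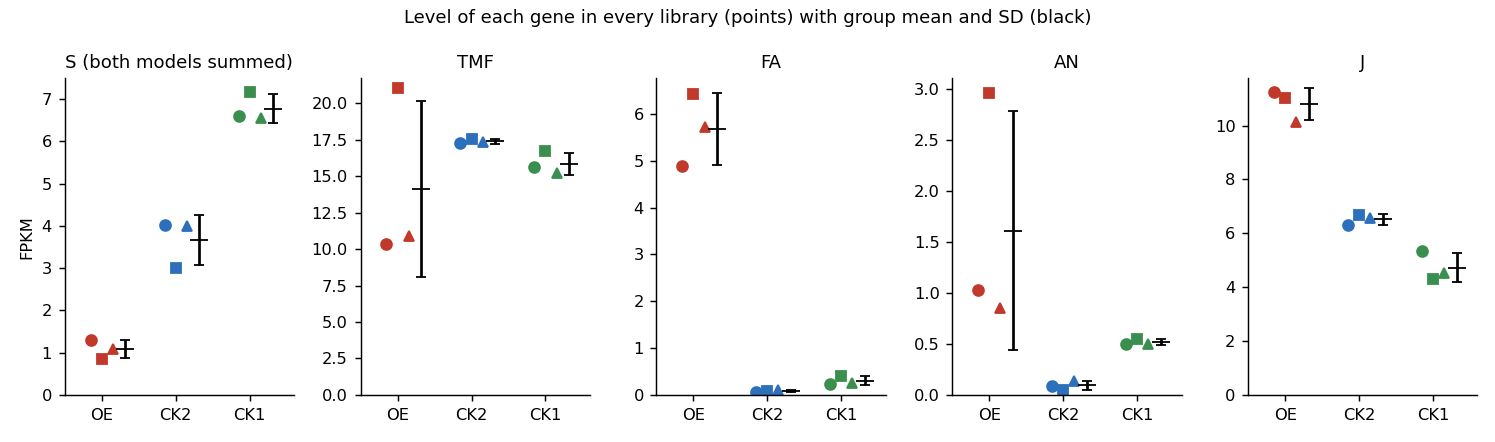
FPKM (vertical axis, each panel with its own scale from 0) of S with both gene models summed, TMF, FA, AN and J in the OE, CK2 and CK1 libraries. Circles, squares and triangles are OE1, OE9 and OE30, or control libraries 1, 2 and 3, and black bars show the mean and SD (n = 3); FA lies at 4.89 FPKM or more in OE and at 0.41 FPKM or less in the controls, while S runs the other way.

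Each comparison was fitted by limma-trend to log2(FPKM + 0.1), and folds and standard errors (SE) below are on that scale. A gene model entered the fit when it reached 0.5 FPKM in 3 or more of the 6 libraries compared. The term called means a change of at least 2-fold with a Benjamini-Hochberg adjusted p under 0.05, taken over every gene model tested. Fitted folds of gene models with low values depend on the added 0.1 and can differ from the ratios of their mean FPKM, being smaller for FA and AN and larger for the gene models of S in OE, where some libraries are listed at 0. Where the groups did not overlap, the two-sided permutation test, run exactly, gave p = 0.1, the smallest p that 3 libraries against 3 allow, so it cannot pass 0.05 for any gene here. Sources do not say for every group that libraries come from separate plants, and p-values then measure only the spread between libraries.

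FA, the LEAFY counterpart, showed the largest rise of the 5 genes in OE. The gene model Solyc03g118160.2.1, which the file places on the plus strand of chromosome 3 (68592023 to 68598192, build SL3.0), was at 4.89, 6.42 and 5.72 FPKM in OE1, OE9 and OE30. It was at 0.06, 0.08 and 0.11 FPKM in CK2 and at 0.23, 0.41 and 0.26 FPKM in CK1. The lowest OE library was thus far above the highest control library, and the OE libraries differed from each other by no more than 1.31-fold. FA averaged 5.68 ± 0.77 FPKM in OE and 0.083 ± 0.025 FPKM in CK2 (SD, n = 3 each), a ratio of 68.1, and the fitted log2 fold change was 4.98 (SE 0.22, limma-trend adjusted p = 7.70e-06). Against CK1, where FA averaged 0.30 ± 0.10 FPKM (SD, n = 3), the ratio was 18.9 and the log2 fold change 3.87 (SE 0.25, limma-trend adjusted p = 7.37e-05). The size depended on the added constant, and with log2(FPKM + 1) the log2 fold change was 2.62 against CK2 and 2.36 against CK1, both still called. The values given first lay at the 99.6th and 99.4th percentiles of all gene models tested. FA reached the minimum level for testing only through the OE libraries, so without any 1 of them it was not tested. Left untested between the controls for the same reason, FA differed in CK2 against CK1 by −1.11 on the log2 scale without the minimum (limma-trend adjusted p = 0.0123), at levels where the rounding to 0.01 FPKM is a sizeable part of the value.

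AN, the F-box partner in floral identity, moved in the same direction as FA but was more variable. Solyc02g081670.1 was at 1.03, 2.96 and 0.85 FPKM in OE1, OE9 and OE30, against 0.09, 0.05 and 0.14 FPKM in CK2 and 0.50, 0.55 and 0.50 FPKM in CK1. OE9 stood above OE1 and OE30, the 3 groups did not overlap, and CK2 was the lowest. Against CK2, AN rose by 2.97 on the log2 scale (SE 0.49, limma-trend adjusted p = 0.00207), with a ratio of mean FPKM of 17.3, and with log2(FPKM + 1) the value was 1.17 and still called. AN passed the minimum level in this comparison only through OE, as FA did, and Solyc02g077390.2 passed largely through the controls. Against CK1 the log2 fold change was 1.27 (SE 0.47, limma-trend adjusted p = 0.0522), which missed the threshold. That value rested in part on OE9, since without OE9 the log2 fold change was 0.75 (limma-trend adjusted p = 0.0401, under 2-fold) and without OE30 it was 1.59 (limma-trend adjusted p = 0.0270), which is called. AN was also the only gene model called of the 5 tested between the controls. FA was not tested there, but without the minimum level its difference passed both thresholds (log2 fold change −1.11, limma-trend adjusted p = 0.0123). AN was lower in CK2, at 0.093 ± 0.045 FPKM, than in CK1, at 0.517 ± 0.029 FPKM (SD, n = 3 each), and the fit gave −1.70 on the log2 scale (SE 0.27, limma-trend adjusted p = 0.00118). AN passed the minimum level here only through CK1, the higher group, with values at or just above 0.5 FPKM. On the log2(FPKM + 1) scale the difference was −0.47 and no longer reached 2-fold, and with libraries scaled by their median ratio AN fell under the minimum and was not tested.

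S, the WOX9 gene expressed ahead of AN in maturing meristems, was lower in OE than in either control. The locus has 2 gene models. Solyc02g077390.2 has no position in the file, and Solyc02g077390.2.1 is placed on the minus strand of chromosome 2 (42903458 to 42905770, build SL3.0). Solyc02g077390.2 was at 0.48, 0 and 1.09 FPKM in OE1, OE9 and OE30, at 2.67, 2.77 and 3.70 FPKM in CK2 and at 5.80, 5.96 and 5.49 FPKM in CK1. The groups were separate, with OE at the bottom and CK1 at the top. Solyc02g077390.2.1 was at 0.81, 0.86 and 0 FPKM in the same OE libraries, at 1.36, 0.22 and 0.29 FPKM in CK2 and at 0.79, 1.21 and 1.06 FPKM in CK1. These values overlapped between all 3 groups.

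The log2 fold change of Solyc02g077390.2 was −2.92 in OE against CK2 (SE 0.88, limma-trend adjusted p = 0.0241) and −3.83 against CK1 (SE 0.87, limma-trend adjusted p = 0.00906). The call against CK2 was lost without CK2_1, CK2_2 or CK2_3 (limma-trend adjusted p = 0.0522, 0.0538 and 0.0641 in that order), and without OE9, listed at 0, the fall was smaller, with log2 fold changes of −1.91 against CK2 and −2.82 against CK1. Solyc02g077390.2.1 was not called in any comparison, with log2 fold changes of −0.35 against CK2 (95% interval −2.90 to 2.19) and −1.32 against CK1 (95% interval −3.49 to 0.85), and without OE30 the value against CK2 turned to 0.72.

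The 2 gene models of S varied against each other within OE, and their sum varied far less than either. In OE9 all of the signal was given to Solyc02g077390.2.1, in OE30 all of it to Solyc02g077390.2, and in OE1 it was shared. The coefficient of variation within OE was 104% for Solyc02g077390.2 and 86.7% for Solyc02g077390.2.1 but 19.9% for their sum, which was 1.29, 0.86 and 1.09 FPKM in OE1, OE9 and OE30. The sum was 4.03, 2.99 and 3.99 FPKM in CK2 and 6.59, 7.17 and 6.55 FPKM in CK1. Summed, S fell in OE, with log2 fold changes of −1.68 against CK2 (SE 0.21, limma-trend adjusted p = 0.000588) and −2.56 against CK1 (SE 0.18, limma-trend adjusted p = 9.08e-05). Among the 4537 loci whose 2 gene models both averaged more than 0.1 FPKM in OE, the sum varied less than either model at 45.2%, and at 22 loci, S included, each model was at 0 in some OE library while the sum never was. Whether the authors' assignment of reads to gene models gave this pattern was not tested.

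**Figure D2:**
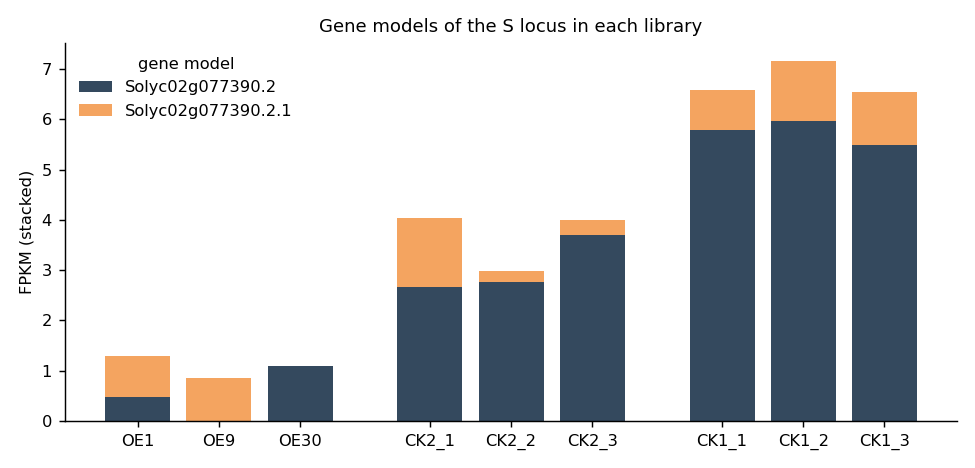
FPKM (vertical axis) of the 2 gene models of S stacked for each of the 9 libraries, dark for Solyc02g077390.2 and light for Solyc02g077390.2.1. The stacked height is 0.86 to 1.29 FPKM in OE, 2.99 to 4.03 FPKM in CK2 and 6.55 to 7.17 FPKM in CK1, while in OE the split between the models changes from library to library.

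The controls also differed at S. Solyc02g077390.2 averaged 3.05 ± 0.57 FPKM in CK2 and 5.75 ± 0.24 FPKM in CK1 (SD, n = 3 each), and the fit gave −0.91 on the log2 scale (SE 0.14, limma-trend adjusted p = 0.000937), just under the 2-fold threshold. Without CK2_3 the value was −1.05, and the gene model was then called, while with all 9 libraries in 1 fit, which shares the spread of OE, the same difference had an SE of 0.76 and a limma-trend adjusted p of 0.351. For the sum it was −0.88 (SE 0.13, limma-trend adjusted p = 0.000456). Loss of S function, like loss of AN, gives tomato highly branched inflorescences. The labels name the cultivar of CK2 and OE as Compound raceme, but they do not say which allele of S any plant carries, and the expression values do not show it.

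TMF, the ALOG gene that holds back AN, had the highest level of the 5 in the controls and no called difference. Solyc09g090180.1 was at 10.3, 21.1 and 10.9 FPKM in OE1, OE9 and OE30, against 17.3, 17.6 and 17.4 FPKM in CK2 and 15.7, 16.7 and 15.2 FPKM in CK1. OE1 and OE30 were below all control libraries and OE9 was above them all. The log2 fold change was −0.38 against CK2 (95% interval −1.05 to 0.29, limma-trend adjusted p = 0.259) and −0.25 against CK1 (95% interval −0.91 to 0.42, limma-trend adjusted p = 0.464), and both intervals hold no change as well as a fall near 2-fold. These values depended on OE9. Without it the log2 fold change was −0.71 against CK2 (limma-trend adjusted p = 0.00139) and −0.57 against CK1 (limma-trend adjusted p = 0.00459), both under 2-fold, and without OE1 or OE30 it lay between −0.24 and −0.06 over both comparisons. With libraries scaled by their median ratio it was −0.69 against CK2 (limma-trend adjusted p = 0.0459), also under 2-fold. The coefficient of variation of TMF was 42.7% in OE, higher than in 93.0% of the 7730 gene models within 2-fold of its level there. In CK2 it was 0.90%, lower than in most gene models of similar level. Between CK2 and CK1 TMF differed by 0.13 on the log2 scale, a 1.10-fold difference with adjusted p = 0.0472 (limma-trend).

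J, the MADS-box gene of the flower stalk joint, was highest in OE, intermediate in CK2 and lowest in CK1. Solyc11g010570.2.1, placed on the plus strand of chromosome 11 (3640920 to 3646244, build SL3.0), was at 11.24, 11.03 and 10.12 FPKM in OE1, OE9 and OE30, at 6.30, 6.69 and 6.56 FPKM in CK2 and at 5.33, 4.31 and 4.54 FPKM in CK1. No group overlapped another, and the coefficient of variation was 5.51% in OE, 3.05% in CK2 and 11.3% in CK1. Against CK1 J rose by 1.18 on the log2 scale (SE 0.13, limma-trend adjusted p = 0.000494), a 2.26-fold difference. Against CK2 the log2 fold change was 0.72 (SE 0.10, limma-trend adjusted p = 0.00107), a 1.65-fold difference that passed the test on p but not the fold threshold, and with both controls pooled it was 0.95. Between CK2 and CK1 it was 0.46 (SE 0.10, limma-trend adjusted p = 0.00493). With the same scaling, the difference between OE and CK2 shrank to 0.41 (limma-trend adjusted p = 0.0115). That scaling moved the median log2 fold change of all gene models against CK2 to −0.15, where it had been 0.17.

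**Figure D3:**
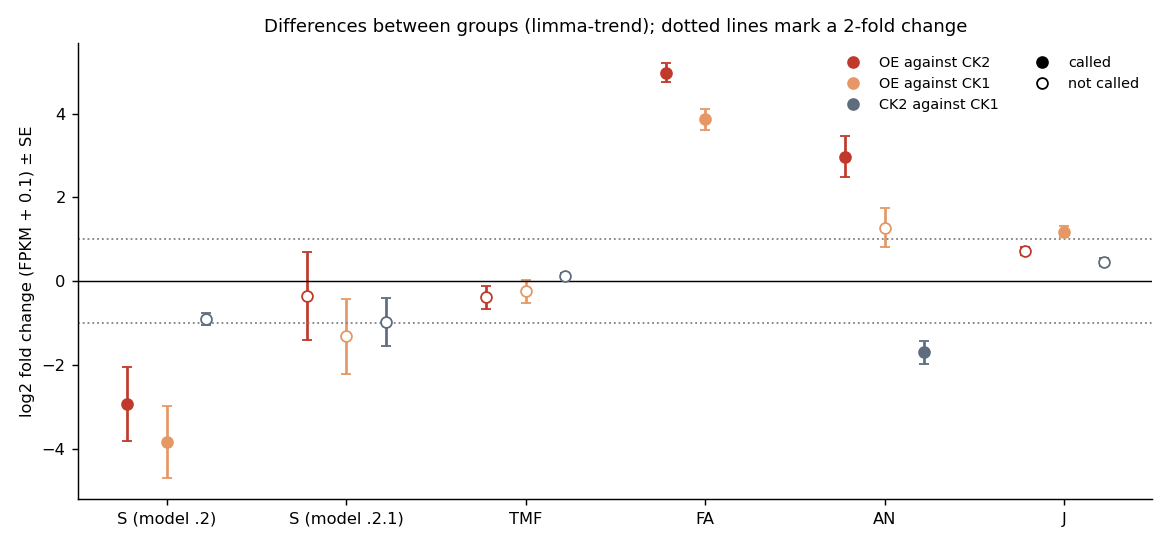
Fitted log2 fold change on the log2(FPKM + 0.1) scale with its standard error (vertical axis) for the 6 gene models in OE against CK2, OE against CK1 and CK2 against CK1. Filled points were called, open points were not, dotted lines mark 2-fold, and FA was not tested between the controls. FA and AN lie above zero and Solyc02g077390.2 below it in both comparisons with OE. TMF lies between −0.38 and 0.13 in all 3 and was not called.

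The share of inflorescence gene models called was read against the share of all gene models, and was near it. Of the 6 gene models, 3 were called in OE against CK2 (FA and AN higher, Solyc02g077390.2 lower), where 49.0% of all 24905 gene models tested were called. In OE against CK1, 3 of 6 were called (FA and J higher, Solyc02g077390.2 lower), against 39.2% of 24448. Between CK2 and CK1 1 of the 5 tested was called (AN, lower in CK2), against 27.0% of 25268. These counts depend on which members reached the minimum level and support nothing by themselves. The median log2 fold change of the gene models tested was 0.18, 0.47 and −0.91 in these 3 comparisons, beside 0.17, 0.01 and −0.23 over all gene models tested. The comparisons share libraries, OE in the first pair and each control in the last, so they are not independent of each other.

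The place of each gene model within its own library does not depend on how libraries were scaled. By this place, OE lay apart from the controls for FA, AN, J and Solyc02g077390.2, and not for TMF and Solyc02g077390.2.1. The share of all gene models that separate in this way was not computed, so the separation is no result about these genes as a set. FA stood at the 58.1st to 61.9th percentile of FPKM in OE, against the 17.0th to 19.7th in CK2 and the 23.8th to 28.1st in CK1. AN stood at the 39.7th to 49.8th percentile in OE, the 16.8th to 20.9th in CK2 and the 29.6th to 30.4th in CK1. J was at the 70.2nd to 71.9th percentile in OE, the 61.5th to 63.2nd in CK2 and the 55.0th to 58.4th in CK1. For these 3 genes the ranges of the groups were separate. Solyc02g077390.2 was at the 9.5th to 42.1st percentile in OE, the 48.4th to 53.6th in CK2 and the 58.9th to 60.3rd in CK1, also without overlap. TMF ranged from the 70.5th to the 81.7th percentile in OE, a span that holds all control values.

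**Figure D4:**
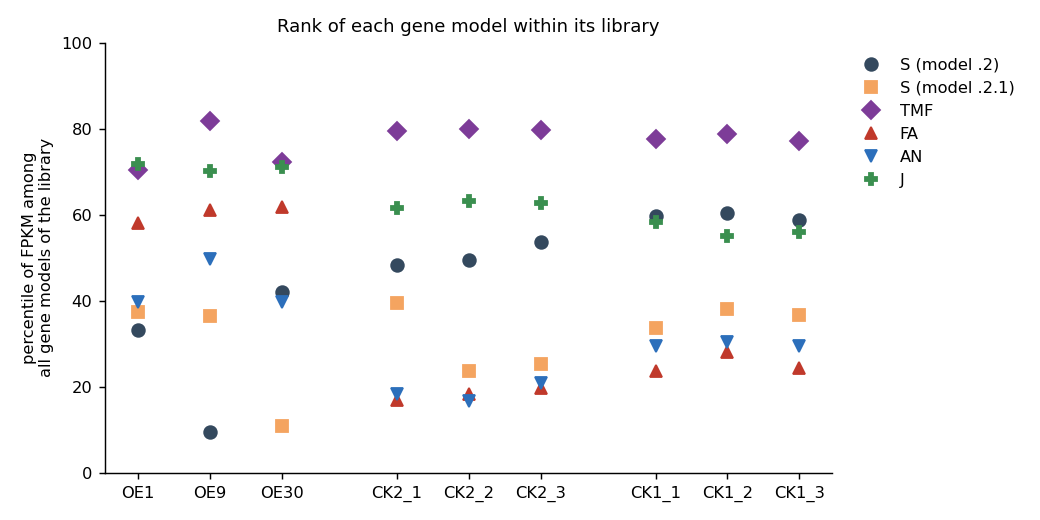
Percentile of FPKM among all gene models of the same library (vertical axis, 0 to 100) for the 6 gene models in each of the 9 libraries. FA stands between 58.1 and 61.9 in OE and at 28.1 or below in the controls, J moves above 70 in OE, and TMF stays above 70 in every library.

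Ratios between the genes within a library differed between OE and the controls, and S over FA was under 1 in every OE library and above 1 in every control library. These ratios follow from the FPKM values given above and are no separate result. FA was above AN in every OE library, by 4.75, 2.17 and 6.73 times in OE1, OE9 and OE30, against 0.67, 1.60 and 0.79 times in CK2 and 0.46, 0.75 and 0.52 times in CK1. The OE range did not overlap the controls. S, with its models summed, was 1.25, 0.29 and 1.28 times AN in OE1, OE9 and OE30, against 28.5 to 59.8 times in CK2 and 13.0 to 13.2 times in CK1. Against FA, S was at 0.13 to 0.26 times in OE, 36.3 to 67.2 times in CK2 and 17.5 to 28.7 times in CK1. The control ratios in CK2 rest on AN and FA values of 0.14 FPKM or less. TMF was 7.11 to 12.9 times AN in OE, 124.0 to 351.2 times in CK2 and 30.3 to 31.3 times in CK1. In CK1 the ratios S over AN and TMF over AN were almost the same in all 3 libraries.

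**Figure D5:**
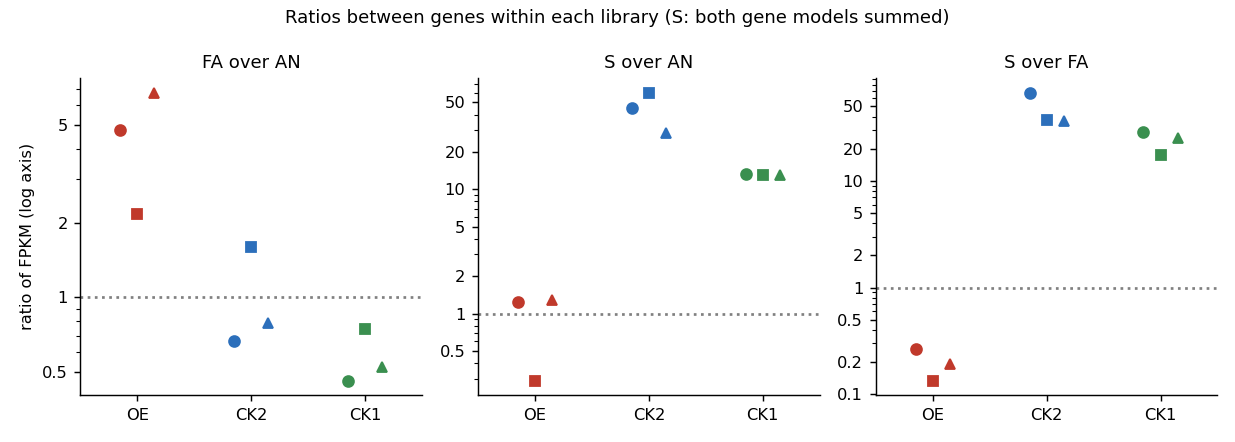
Ratio of FPKM between genes within each library (log axis) for FA over AN, S over AN and S over FA, with S as the sum of its 2 gene models; circles, squares and triangles are OE1, OE9 and OE30, or control libraries 1, 2 and 3, and the dotted line marks equal levels. FA exceeds AN by 2.17 to 6.73 times in OE, and S is 13.0 times AN or more in all control libraries but at most 1.28 times AN in OE.

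OE9, the library with the most WRKY-B, stood apart from OE1 and OE30 for some of these genes and not for others. AN was 3.15 times and TMF 1.98 times as high in OE9 as in the mean of OE1 and OE30, FA was 1.21 times and J 1.03 times as high, and S summed was 0.72 times as high. WRKY-B was 2.46 times as high. Over the 18949 gene models at 1 FPKM or more in each OE library the median of this ratio was 1.045, and 3.34% were at or above the ratio of TMF. AN, at 0.85 FPKM in OE30, is not among them, and its coefficient of variation of 72.5% in OE was higher than in 85.5% of the 5204 gene models within 2-fold of its mean level. With 3 libraries, no relation between the level of WRKY-B and these genes can be tested.

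For each gene model, the profile nearest to it over the 9 libraries was sought among 24286 gene models at other loci with 1 FPKM or more in at least 3 libraries, by the root mean square difference of log2(FPKM + 0.1) after each profile was centred on its own mean. These neighbours have an ID but no name in the sources used here. The nearest to AN was Solyc07g023995.1.1, with a difference of 0.24, at 2.47, 5.71 and 2.46 FPKM in OE1, OE9 and OE30, 0.24 to 0.27 FPKM in CK2 and 0.88 to 1.26 FPKM in CK1. The nearest to FA was Solyc07g065330.3, with a difference of 0.31, at 9.51 to 14.1 FPKM in OE, 0.17 to 0.34 FPKM in CK2 and 0.75 to 0.91 FPKM in CK1. Within 0.5 of AN there were 76 gene models, and within 0.5 of FA there were 38. TMF and J had closer neighbours, Solyc05g018230.3 at 0.093 and Solyc09g007370.3.1 at 0.096, with 6589 and 6001 gene models within 0.5. Solyc05g018230.3 shared the high value in OE9, at 7.85, 19.2 and 8.52 FPKM in OE1, OE9 and OE30. Solyc02g077390.2 had no neighbour within 0.5, the nearest being Solyc11g013270.2 at 0.54, and Solyc02g077390.2.1 had 1, Solyc12g088310.2 at 0.45. The value of 0 of Solyc02g077390.2 in OE9 and of Solyc02g077390.2.1 in OE30 enters their distances, and the summed locus was not used for them. Between the 5 genes themselves, TMF and J were nearest to each other, at 0.67, followed by Solyc02g077390.2.1 and TMF at 1.11, AN and J at 1.14 and AN and FA at 1.19, while Solyc02g077390.2 and FA were the farthest apart, at 3.80. The measure does not scale profiles by the size of their changes, so profiles that change little lie close whatever their direction. TMF and J did not move together, and TMF over J was 0.92 to 1.91 in OE, 2.625 to 2.74 in CK2 and 2.94 to 3.87 in CK1.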

How the data were processed

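The data set holds 9 tomato RNA-Seq libraries, 3 each of OE, CK2 and CK1. For 33989 gene models the authors deposited 1 FPKM value for each library, given to 2 decimals. In the submitters' processing notes the tools are RSEM 1.2.12, HISAT2 2.0.4, DESeq2 1.4.5 and Bowtie2 2.2.5, and the notes do not say what each was used for. Positions are on build SL3.0, while the methods name another build. The columns with fold changes, p-values and q-values of the authors' own comparisons were not used. Tests used limma 3.58.1 in R 4.3.3 as described in the report, on the 6 libraries of each pair of groups. The fit was also run on simulated data, with changes placed only in gene models above a set mean level. That run does not bear on gene models with low values, and its outcome is not given here. Values and figures were prepared with pandas 2.3.3, numpy 2.4.6 and matplotlib 3.10.9 under Python 3.11.15. The sequencing depth is unknown, so no counting error could be given.

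The members, lists and tests were chosen with earlier results of these data known. The named genes are the 5 loci, WRKY-B as the check of the overexpression, and the nearest profile to each gene model, by the measure given in the report. RefSeq's table for assembly SLM_r2.1 lists the symbols S, DOT (synonym AN), FALSIFLORA and J on chromosomes 2, 2, 3 and 11, as in the IDs, but pairs 0 of its genes with an ID of the file. Lists of other inflorescence, flowering, floral organ and photosynthesis genes (31 IDs) were therefore not used, and no sequence is shown. Alternatives were log2(FPKM + 1), log2(FPKM + 0.01), no minimum level, all 9 libraries in 1 fit, median-ratio scaling of the libraries, summed loci, each library left out, the 6 controls pooled, and, for CK2 against CK1, a block for the replicate number.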

Additional observations from a re-analysis of the deposited data

How the results depend on the processing

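Settings under which a member was not tested give no value here, and the values are not independent. The fit against the 6 controls counts under both comparisons with OE, and some settings leave a fold change as it was. Of 205 alternative values for the 17 member results, 190 kept their direction and whether the gene model was called, that is, past both the fold and the p threshold. Some of these crossed the p threshold alone, among them TMF against CK2 (adjusted p = 0.00139 without OE9 and 0.0459 with median-ratio scaling) and Solyc02g077390.2 between the controls (adjusted p = 0.351 with all 9 libraries in 1 fit), from limma-trend. Solyc02g077390.2 against CK2 was −4.11 (log2 fold change) and not called with log2(FPKM + 0.01), was −1.46 and called with log2(FPKM + 1), and ranged from −3.69 to −1.91 with a library left out. Solyc02g077390.2.1, replaced by the sum of its locus, was called at −1.68 against CK2 and −2.56 against CK1, and with a library left out it ranged from −0.77 to 0.72 against CK2. AN against CK1 was called with all 9 libraries in 1 fit (1.27, adjusted p = 0.0280), with summed loci (1.27, adjusted p = 0.0470) and against the 6 controls (2.12, adjusted p = 0.0223), and ranged from 0.75 to 1.59 with a library left out, all from limma-trend. J against the 6 controls was 0.95 and under 2-fold. Between the controls, AN was −0.47 with log2(FPKM + 1), and with a library left out Solyc02g077390.2 ranged from −1.05 (called, without CK2_3) to −0.82 and Solyc02g077390.2.1 from −1.65 (called, without CK2_1) to −0.55. FA in comparisons with OE, and AN against CK2, could not be tested without an OE library, and Solyc02g077390.2.1 was then tested against CK2 only without OE30, CK2_2 or CK2_3. AN was not tested between the controls without a CK1 library or with median-ratio scaling. FA against CK2 ran from 2.62 with log2(FPKM + 1) to 5.96 with log2(FPKM + 0.01), and AN against CK2 from 1.17 to 3.84. The cause of these shifts was not tested.

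Total counts of called gene models stayed within 1.5-fold under these alternatives. The split moved with median-ratio scaling, to 4627 higher and 6989 lower where it had been 6424 and 5773 in OE against CK2, and to 3862 and 2610 where it had been 3283 and 3543 in CK2 against CK1. It also moved when a control library was left out, since a gene model at 0.5 FPKM or more only in that group then has 2 such libraries, under the minimum of 3. Without CK2_1, CK2_2 or CK2_3, 3368 to 3392 gene models were lower in OE against CK2 and 1968 to 1974 higher in CK2 against CK1, and without CK1_1, CK1_2 or CK1_3, 3419 to 3450 were lower in OE against CK1, where 5323 had been. With the replicate number as a block, 6822 gene models were called between the controls, and no call of a member changed. Same-numbered control libraries did not deviate together (r = −0.03, 0.01 and −0.01). Whether such libraries share more than a number is not known. Precision is limited by 3 libraries per group and by rounding to 0.01 FPKM for FA and AN in CK2.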
